A study of Mus musculus with 12 samples.

Results

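Intergenic CpGs far from promoters were taken as the autosomal CpG cytosines read at least 10 times in each of 12 mouse brain libraries, lying over 5000 bp from every annotated transcript start and outside every annotated gene. They numbered 41252 of 970775 autosomal cytosines read to that depth (4.25%), and belonged to 32868 CpG dinucleotides, of which 8384 were read on both strands and 24484 on 1 strand. The assay was reduced representation bisulfite sequencing (RRBS), in which DNA is cut at CCGG so that CpG-rich fragments are sampled, and bisulfite turns unmethylated but not methylated cytosine into a base read as T. A methylation level is the percent of reads at a cytosine that kept C.

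The libraries came from 4 wild-type mice (Wt; 3 labelled female, 1 labelled male) and 8 Tg2576 transgenic mice (Tg; 4 labelled female, 4 labelled male), labelled as 11 months old, with 1 library per animal and tissue mixed from hippocampus and cortex. Tg2576 mice carry a human APP transgene with the Swedish familial Alzheimer's disease mutation, driven by a prion protein promoter, and the comparison asks whether methylation differs with it. Neither the labels nor the study's methods give an experimental treatment, and the mice were killed under isoflurane anesthesia. The study's methods give an age range that reaches above the labelled 11 months, and its supplement gives about 11 months. A tissue mixture does not separate a change within cells from a change in their proportions. Coverage summed over these cytosines ran from 849162 to 2566193 in the 12 libraries, where a read counts once at each cytosine it covers. The median coverage per cytosine was from 18 to 55. The library labelled Wt male had a mean chromosome X level of 19.9%, near the 20.7 to 23.0% of the 7 libraries labelled female and far from the 5.50 to 5.67% of the 4 Tg males, so its label was in doubt. The genotype comparisons of mean levels with each cytosine weighing the same, and the counts of binomial and overdispersion calls, were therefore also made without it. In those counts sex stayed a covariate, and every remaining male was Tg. Their genotype term thus compared 3 Wt with 4 Tg females and left the Tg males without a control.

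Most CpGs of a mammalian genome lie outside CpG islands, are methylated by DNA methyltransferases and sit in DNA that includes many transposable elements, which methylation helps to keep silent. CpG islands, and enhancers bound by transcription factors, are commonly kept with little methylation, also where they lie far from any known start of transcription. RRBS reads only a CpG-rich share of intergenic DNA, so the values below are not those of intergenic DNA as a whole.

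The sequences below show the kinds of intergenic DNA that the results turn on. They are taken from the mm10 reference on the plus strand, each at most 200 bases from the middle of a stretch, with every CpG in capitals. A stretch is a run of at least 3 tested cytosines with gaps of at most 200 bp. The first 4 stretches stayed under 10% methylation in each library, and lie at chr6:91843438-91843637 between Grip2 and Ccdc174, chr11:98338834-98339033 between Neurod2 and Ppp1r1b, chr1:78217448-78217647 beyond Pax3, and chr11:76622799-76622998 between Abr and Bhlha9.
Grip2 side stretch: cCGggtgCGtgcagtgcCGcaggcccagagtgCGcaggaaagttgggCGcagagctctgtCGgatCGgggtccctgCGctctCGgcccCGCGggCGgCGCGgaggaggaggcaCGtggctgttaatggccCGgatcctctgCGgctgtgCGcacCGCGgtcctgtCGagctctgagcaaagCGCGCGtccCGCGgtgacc
Neurod2 side stretch: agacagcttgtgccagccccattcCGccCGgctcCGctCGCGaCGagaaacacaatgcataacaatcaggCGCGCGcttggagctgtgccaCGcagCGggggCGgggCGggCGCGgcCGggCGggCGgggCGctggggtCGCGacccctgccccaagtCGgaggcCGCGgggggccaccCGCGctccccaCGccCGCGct
Pax3 side stretch: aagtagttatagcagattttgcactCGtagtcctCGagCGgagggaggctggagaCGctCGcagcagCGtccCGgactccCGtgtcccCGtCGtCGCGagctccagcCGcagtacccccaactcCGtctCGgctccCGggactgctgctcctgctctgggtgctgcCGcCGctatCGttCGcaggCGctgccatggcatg
Bhlha9 side stretch: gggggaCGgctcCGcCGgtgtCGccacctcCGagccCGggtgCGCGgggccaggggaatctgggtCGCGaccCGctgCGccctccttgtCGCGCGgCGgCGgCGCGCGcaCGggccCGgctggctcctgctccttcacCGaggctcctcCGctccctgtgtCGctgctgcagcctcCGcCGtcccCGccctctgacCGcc
The next pair stayed above 80% in each library, at chr12:5055114-5055313 and, within a repeat, chr2:99228350-99228455.
Chromosome 12 methylated stretch: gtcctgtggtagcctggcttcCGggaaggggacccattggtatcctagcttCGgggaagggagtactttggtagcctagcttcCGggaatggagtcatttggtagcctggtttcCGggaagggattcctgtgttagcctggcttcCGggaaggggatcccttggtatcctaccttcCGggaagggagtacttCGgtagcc
Chromosome 2 methylated stretch: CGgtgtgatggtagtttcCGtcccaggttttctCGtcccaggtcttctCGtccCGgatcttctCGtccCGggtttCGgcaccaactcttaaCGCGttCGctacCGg
The next pair stayed between 30 and 70% in each library, at chr16:30120798-30120997 in the neighbourhood of Hes1 and chr10:77664378-77664517 between Ube2g2 and Tspear.
Hes1 neighbourhood stretch: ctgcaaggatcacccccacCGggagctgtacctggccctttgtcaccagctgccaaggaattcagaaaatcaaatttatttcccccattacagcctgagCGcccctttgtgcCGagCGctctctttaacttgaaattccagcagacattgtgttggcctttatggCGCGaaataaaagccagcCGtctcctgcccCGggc
Tspear side stretch: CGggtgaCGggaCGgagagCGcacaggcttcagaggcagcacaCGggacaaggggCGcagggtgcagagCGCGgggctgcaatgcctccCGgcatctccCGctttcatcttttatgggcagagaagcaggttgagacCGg
The last pair had the widest range between animals among stretches of at least 5 cytosines, at chr2:71934227-71934339 between Pdk1 and Rapgef4 and chr4:152647231-152647304 beyond Nphp4.
Rapgef4 side stretch: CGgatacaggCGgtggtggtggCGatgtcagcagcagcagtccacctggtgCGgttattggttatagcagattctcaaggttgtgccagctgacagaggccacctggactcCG
Nphp4 side stretch: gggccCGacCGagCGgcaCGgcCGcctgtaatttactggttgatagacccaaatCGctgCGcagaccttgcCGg
The 4 unmethylated windows held from 21 to 29 CpGs in 200 bases, at a GC content of 65.5 to 78.5%. The chromosome 12 window held 7 CpGs, with CCGG 5 times, and the Hes1 window held 8.

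Intergenic CpGs covered the whole range of methylation. Pooled over the libraries, 49.2% of the cytosines were under 10% methylated, 11.2% were over 90% and 13.9% lay from 30 to 70%, with a median of 10.6%. The mean level was 28.9% ± 1.25 (SD, n = 12 animals), from 27.5% in the library labelled Wt male to 31.4% in Wt female 1.

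The other autosomal classes were read in the same libraries. Each comparison was made within animals by an exact sign-flip test, whose smallest possible two-sided p over 12 animals is 0.000488, and all 4 class comparisons gave p = 0.000488. The mean level was 1.68% within 1 kb of a transcript start and 11.7% from 1 to 5 kb, so that intergenic CpGs were higher by 27.3 ± 1.19 and 17.3 ± 0.681 points (SD, n = 12). Far from promoters, coding-exon CpGs had a mean of 33.1%, and the intergenic mean minus it was -4.17 ± 0.232 points, below 0 in each of 12 animals. Its size depended on the processing, at -0.535 points with at least 20 reads in every library and -10.7 points when each stretch counted once. With at least 20 reads the differences from CpGs within 1 kb and at 1 to 5 kb were 8.09 and 4.78 points. Intronic CpGs had a mean of 27.7%, and the intergenic mean was 1.22 ± 0.448 points higher. This last difference turned around among cytosines with at least 20 reads in every library (-0.525 points, exact sign-flip p = 0.000977) and when both strands of a CpG were required and joined (-1.88 points, p = 0.000488 by the same exact test). Of intergenic cytosines 12.9% lay in repeats, against 6.80% of intronic ones, whose part in the difference was not tested.

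**Figure D1:**
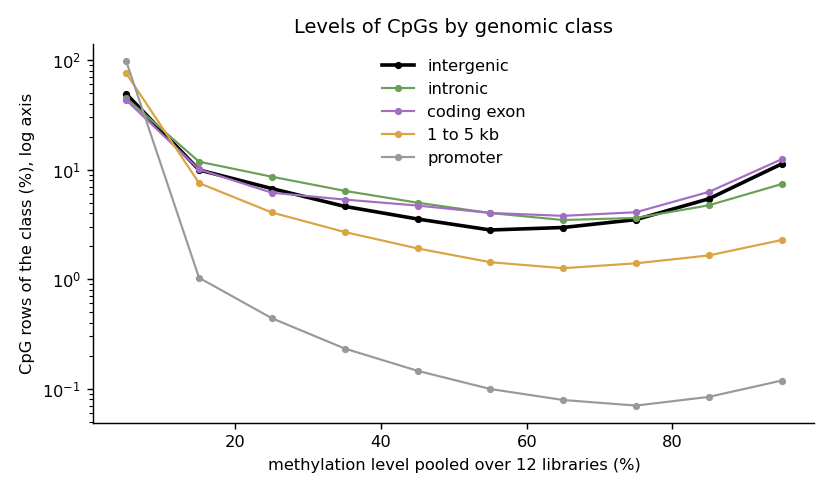
Percent of the cytosines of each class (log axis) in bins of 10 points of methylation level pooled over the 12 libraries. The intergenic line runs from 49.2% of cytosines in the lowest bin to 11.3% in the highest, and the promoter line has 97.7% in the lowest bin.

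CpG density ordered the intergenic levels. Cytosines with at most 5 CpGs in the 500 bp window around them had a mean level of 55.3%, those with 11 to 15 CpGs 39.3%, those with 21 to 30 CpGs 25.3%, those with 31 to 40 CpGs 7.23% and those with over 50 CpGs 1.10%. The mean fell at every step through 8 such bins in each of the 12 libraries. Of intergenic cytosines 25.1% lay in island-like sequence, defined as a 500 bp window with a GC content over 55% and an observed to expected CpG ratio over 0.65. Island-like intergenic CpGs had a mean level of 2.67% ± 0.125 and the others 37.7% ± 1.63 (SD, n = 12), a difference of -35.1 ± 1.54 points (exact sign-flip p = 0.000488, below 0 in 12 of 12 animals). With at least 20 reads in every library it was -12.4 points.

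Repeats stood apart from this order. Repeat-masked intergenic CpGs, which the reference prints in lower case and which hold transposable elements and simple repeats, had a mean level of 76.01% ± 0.639, against 22.0% ± 1.34 for the rest, a difference of 54.0 ± 0.780 points (exact sign-flip p = 0.000488, higher in 12 of 12 animals), which was 29.1 points when each stretch counted once. Within repeats the mean level was 69.8% at up to 10 CpGs per window, 79.1% at 11 to 20 and 86.3% at 21 to 30, whereas outside repeats the same bins had 43.1%, 29.7% and 9.50%. The slope with density thus had opposite directions up to 30 CpGs. At over 30 CpGs the repeat level was 47.0% over 396 cytosines, against 2.18% outside repeats. The 253 cytosines that were both island-like and repeat-masked had a mean level of 24.6%, between the 2.12% of island-like CpGs outside repeats and the 78.6% of repeats that were not island-like.

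Levels also rose with distance from genes. The mean was 20.1% at 5 to 10 kb from the nearest transcript start, 26.9% at 10 to 20 kb, 31.6% at 20 to 50 kb, 36.1% at 50 to 100 kb and 56.8% beyond 100 kb, and it rose at each step in each of the 12 libraries. The composition moved with it. Island-like sequence made up 32.9% of the nearest bin and 7.98% of the farthest, and repeats 8.30% and 39.6%. With island-like and repeat-masked cytosines left out, the mean still rose at each step in 12 of 12 libraries, from 23.7% in the nearest to 42.1% in the farthest bin.

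**Figure D2:**
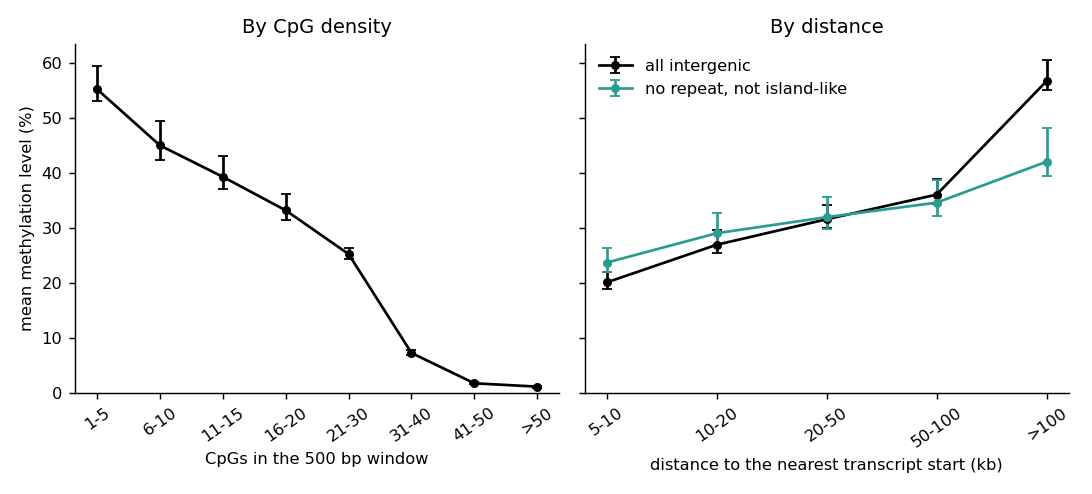
Mean methylation level of intergenic CpGs (%) by the number of CpGs in the 500 bp window (left) and by distance to the nearest transcript start in kb (right). Points are means over 12 libraries and bars run from the lowest to the highest library, with levels from 55.3% down to 1.10% on the left and from 20.1% up to 56.8% on the right.

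Cytosines inside a CCGG, the sequence at which the fragments were cut, had a mean level of 33.2% ± 1.71, against 26.9% ± 1.03 for the other intergenic CpGs, a difference of 6.30 ± 0.733 points (exact sign-flip p = 0.000488). When each stretch counted once the sign turned, to -6.80 points, so that no direction is given for it. The strands agreed closely at the 8384 CpGs read on both, where 97.6% lay within 10 points of each other and 6 CpGs were over 30 points apart.

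The cytosines fell into 4210 stretches that held 32959 of them. Of these stretches, 809 were under 10% methylated in each of the 12 libraries, 544 were over 80% in each and 94 lay from 30 to 70% in each. The kinds differed in sequence and position. Of the unmethylated stretches 32.01% were island-like and 1.11% mostly repeat, and of the methylated ones 0.919% and 70.04%, against 7.51% and 18.4% of all 4210. Unmethylated stretches had a median of 11 cytosines and lay at a median of 13764 bp from a transcript start, and methylated ones had a median of 4 at 29504 bp.

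The unmethylated stretch with the most cytosines, 142 over 712 bp at chr18:36320050-36320761, lies between Igip and Cystm1, and its level was 0.929%, 1.17%, 0.982% and 1.05% in the 4 Wt libraries and from 0.927 to 1.75% in the Tg libraries, with a median of 1.14%. The Wt values lay within the Tg range. The stretch 35611 bp from Grip2, which encodes a scaffold protein of glutamate receptors, held 125 cytosines at chr6:91843067-91844008 and had from 1.202 to 2.02% in Wt and 0.724 to 2.26% in Tg.

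The stretch at chr11:98338457-98339410 lay 8809 bp from Neurod2, a transcription factor of neuronal differentiation, and 8994 bp from Ppp1r1b, which encodes the dopamine-regulated phosphatase inhibitor DARPP-32. It held 110 cytosines over 954 bp, the Wt libraries had 1.04%, 1.13%, 0.854% and 0.748%, and the Tg libraries ran from 0.322 to 2.33% with a median of 0.589%. Both genotypes were near 1% here and their ranges overlapped, in a stretch chosen for a level under 10% in every library.

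Beyond Pax3, a transcription factor of the neural crest and dorsal neural tube, stretches of 104 cytosines at chr1:78217299-78217797 and 103 cytosines at chr1:78216573-78217082 lay 20165 and 19439 bp from the start of the gene. Their mean levels were 1.02% and 1.27% in Tg and 1.11% and 1.42% in Wt. Stretches of 103 cytosines lay at chr9:32032449-32033032 between Barx2 and Arhgap32 and at chr11:76622574-76623224 between Abr and Bhlha9, and another lay at chr18:23310145-23310869 between Nol4 and Dtna. Their levels ran from 0.292 to 2.22% over all libraries.

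Developmental transcription factor genes, a family list of homeobox, Pax, Sox, Fox and related genes, were the nearest gene of 2457 intergenic cytosines at 89 genes. Of those cytosines 86.6% were under 10% methylated, against 49.2% of all, and their median was 2.16%, against 10.6%. Island-like sequence made up 53.4% of them, against 25.1%. Beside Pax3 lay 233 cytosines with a mean of 1.48%, beside Neurod2 99 with 0.981%, beside Ebf3, a neuronal transcription factor, 97 with 1.71%, and beside Gbx2, which acts at the midbrain to hindbrain boundary, 63 with 3.37% and none in island-like sequence. Those nearest Uncx had a mean of 9.31% over 159.

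Imprinted genes, whose parental copies differ in methylation, were nearest to only 66 intergenic cytosines at 7 genes. A level near the middle, as a parental difference gives, was seen at 3.03% of them, against 13.9% of all intergenic cytosines, and 46 of the 66 lay beside Dlk1, with a mean of 9.92%. The other genes had from 1 to 9 cytosines each, with means from 1.69% at Trappc9 to 90.7% at Cobl. The share thus mostly describes the cytosines beside Dlk1.

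Among the methylated stretches, the pair with 16 and 15 cytosines outside annotated repeats lay close together at chr12:5055044-5055383 and chr12:5056001-5056310, the second 11138 bp from the nearest annotated transcript start. The Wt levels at the first were 96.9%, 95.5%, 96.0% and 95.1%, and the Tg levels ran from 94.8 to 96.4% with a median of 95.4%. Its printed sequence shows the unit around CCGG recurring. The stretches at chr18:5438571-5438638, chr5:15496560-15496668 and chr2:99228350-99228454 ran from 88.5 to 100% over all libraries.

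Partly methylated stretches were chosen for a level from 30 to 70% in every library, so their values are a description. The one with the most cytosines, 26 at chr16:30120707-30121088, lay 55367 bp from Hes1, a Notch target that represses neuronal differentiation. It had 39.1%, 46.8%, 45.4% and 42.8% in Wt and from 36.5 to 50.9% with a median of 43.9% in Tg. The 20 cytosines at chr10:77664378-77664516 had 52.3%, 40.8%, 41.9% and 51.7% in Wt and 30.4 to 50% in Tg. In the first the Wt values lay within the Tg range, and in the second the ranges overlapped from 40.8 to 50%.

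Others of this kind lay near Sept9, a cytoskeletal septin, at chr11:117373293-117373524, between Gsc and Dicer1 at chr12:104531924-104532019, between Ttll11 and Ndufa8 at chr2:36013139-36013310, beyond Trabd2b at chr4:114767114-114767327, between Hand2 and Scrg1 at chr8:57436661-57436726 and beyond Vrtn at chr12:84671823-84671896. Their means over Wt and over Tg ran from 41.1 to 50.6%.

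The 5 stretches of at least 5 cytosines with the widest range differed between animals of the same genotype. At chr2:71934227-71934338, 5 cytosines had 80%, 74.4%, 32.2% and 23.5% in Wt and from 20.4 to 96.9%, with a median of 55.5%, in Tg. At chr4:152647231-152647303, 9 cytosines had 69.8%, 1.04%, 40.1% and 22.9% in Wt and 24.4 to 75.3% in Tg. The ranges of the genotypes overlapped widely at both.

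At chr15:86194811-86194857, 8670 bp from Cerk, which encodes ceramide kinase, 5 island-like cytosines had 39.0%, 35.2%, 85.2% and 89.0% in Wt and 16.7 to 67.5% in Tg. Those at chr16:90656688-90656769 ran from 5.91 to 79.2% and those at chr2:171735365-171735399 from 21.8 to 94.3%. In all, 1204 of the 4210 stretches had a range over 30 points. The stretches were chosen for this range, so the values are a description.

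**Figure D3:**
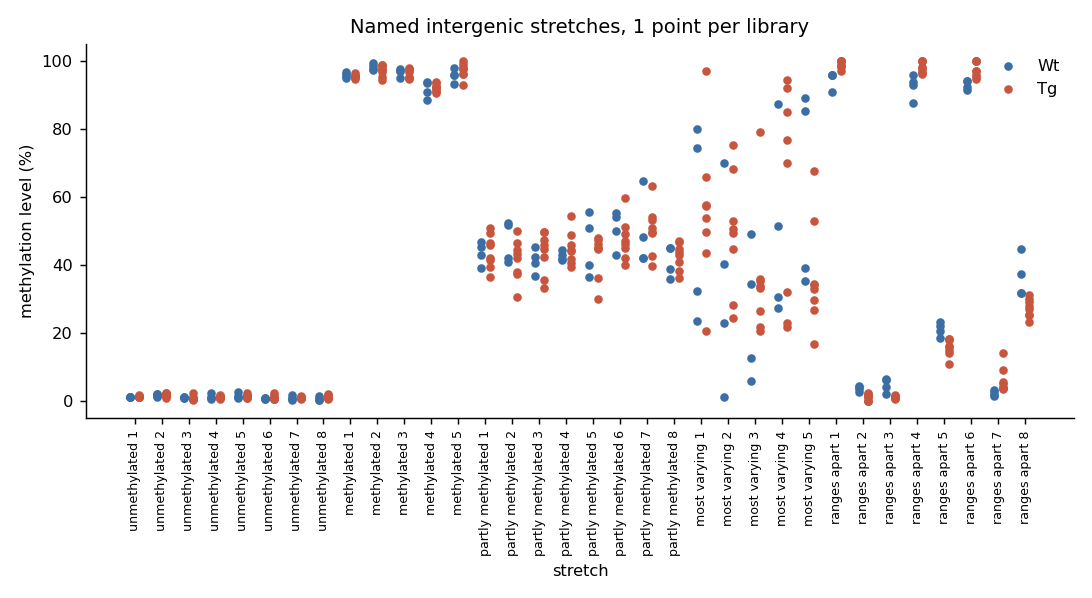
Methylation level (%) of each named intergenic stretch, 1 point per library, Wt in blue and Tg in red. Unmethylated stretches lie under 3%, methylated ones above 88%, the most varying ones run from 1.04 to 96.9%, and those under "ranges apart" were picked because Wt and Tg do not overlap.

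The mean intergenic level did not differ detectably with genotype. The Wt libraries had 31.4%, 28.01%, 28.1% and 27.5%, and the 8 Tg libraries ran from 27.95 to 31.2% with a median of 28.8%. The means were 28.7% ± 1.79 (SD, n = 4) and 29.0% ± 1.02 (SD, n = 8), a Tg minus Wt difference of 0.296 points (two-sided exact permutation p = 0.741 over 495 divisions of the animals). Island-like CpGs had 2.68% ± 0.218 and 2.67% ± 0.0658 (difference -0.00714 points, exact permutation p = 0.937), and the others 37.5% ± 2.32 and 37.9% ± 1.35 (0.398 points, exact permutation p = 0.735). The library labelled Wt male was the lowest of the Wt libraries, and without it the difference was -0.133 points (exact permutation p = 0.945). None of the 7 within-animal differences between classes and sequence kinds differed with genotype (adjusted exact permutation p = 0.818 for each).

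This result turned on libraries and weights. Wt female 1 and Tg female 1 stood above the rest, and without Wt female 1 alone the difference was 1.18 points (exact permutation p = 0.0909). At CpGs that the remaining libraries had at 10 to 30% they were higher by 8.09 and 8.27 points, against -2.22 to 3.49 points for the other 10 libraries measured the same way, and at 30 to 70% by 7.07 and 6.65 points, against -3.81 to 2.54. At 90 to 100% they were at -0.879 and -0.831, within the -1.21 to -0.607 of the others. Without both, an alternative chosen after seeing the data, the Tg mean was higher by 0.865 points (exact permutation p = 0.0417). A mean weighted by each library's own reads gave 20.9% ± 1.02 in Wt and 22.3% ± 0.9951 in Tg (1.41 points, exact permutation p = 0.0444). The 3 libraries with the lowest coverage, all Tg, had the highest read-weighted levels, 23.1 to 23.7%. With the same weights in every library, also chosen after seeing the data, the difference was 0.141 points (exact permutation p = 0.861).

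**Figure D4:**
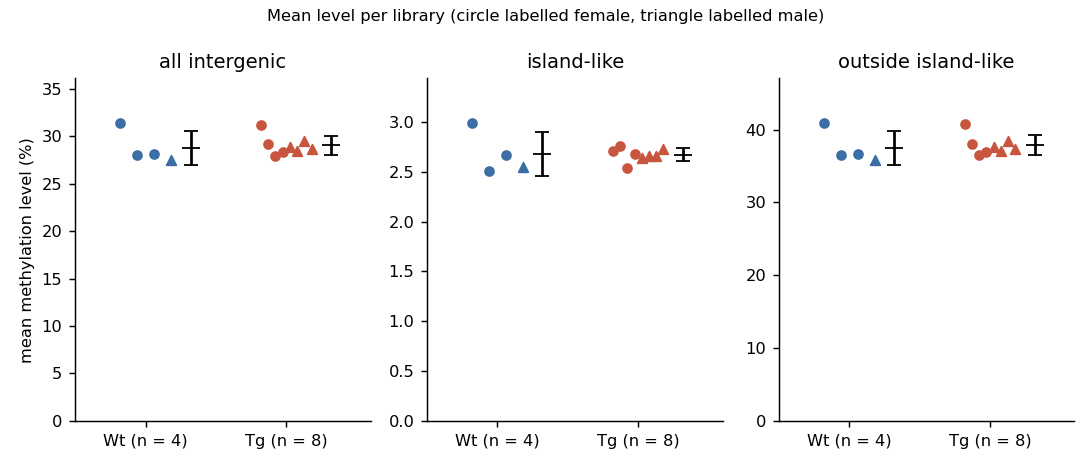
Mean methylation level per library (%) of all, island-like and other intergenic CpGs, by genotype. Circles are labelled female, triangles labelled male, and bars show the mean and SD. Wt runs from 27.5 to 31.4% and Tg from 27.95 to 31.2% on the left.

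**Figure D5:**
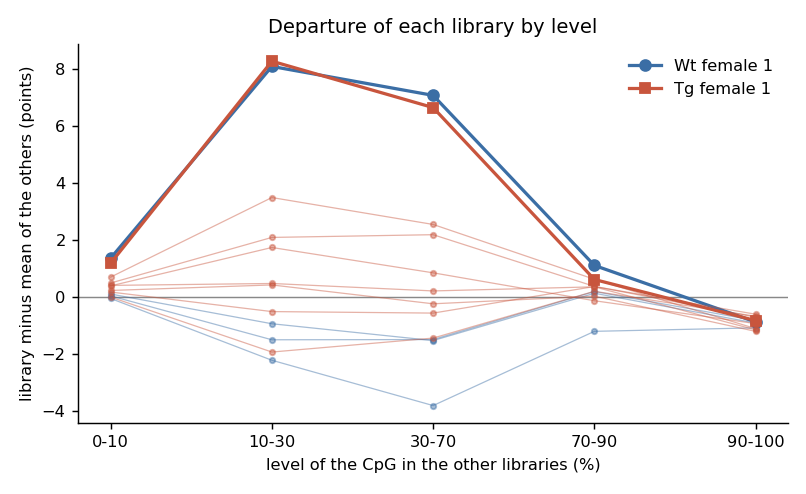
Level of each library minus the mean of the others (points), by the level of the CpG in those others (%), with neither Wt female 1 nor Tg female 1 among them. These libraries stand out at 10 to 30% (8.09 and 8.27 points) and not at 90 to 100%.

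Single cytosines were called by a model that counted reads as independent, but not by one that measured the spread between animals. A call needed an adjusted p under 0.1 over all 980547 cytosines and a read-weighted difference of at least 10 points. The binomial model, with sex as a covariate, called 3046 intergenic cytosines (7.38%, against 1.72% of all cytosines), 1945 higher in Tg (4.71%, against 0.928%) and 1101 lower (2.67%, against 0.793%). Most of all cytosines lie in promoters, of which 0.325% were called, and the share was 9.18% of intronic and 8.29% of coding-exon cytosines far from promoters, so the intergenic share was not above that of the most similar classes. Without the library labelled Wt male 1396 of 2542 calls were higher in Tg, and without Tg female 1 1473 of 2742. The first of these fits is not the same comparison with 1 library fewer. All its males were Tg, so with sex as covariate its genotype p rested on the females, while the difference of at least 10 points used all remaining libraries. The model with overdispersion called 0, as did limma. The overdispersion model had a smallest adjusted p of 0.422, and 8.31% of intergenic cytosines had an unadjusted p under 0.05, against 10.9% of all cytosines. Simulated intergenic rows without a shift, with animals varying, had 7.74% in the same model. The intergenic share was 10.6% at pooled levels under 10% and 9.85% above 90%. Between them it was 4.76% at 10 to 30%, 4.85% at 30 to 70% and 5.98% at 70 to 90%. At that unadjusted level limma had 3328. Median dispersion, which is 1 for reads that vary as in counting, was 2.56 over intergenic cytosines and 3.51 over those called.

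Binomial calls gathered at middle levels. They took 0.453% of cytosines with a pooled level under 10%, 12.9% at 10 to 30%, 21.4% at 30 to 70%, 17.3% at 70 to 90% and 4.32% above 90%. Of island-like cytosines 0.396% were called and of the others 9.72%. A call needed a difference of at least 10 points, for which cytosines under 10% or above 90% have little room. The same holds for island-like cytosines, whose mean level was 2.67%. These shares thus partly follow from the rule for a call. Leaving out each animal in turn, 606 of the 3046 were called in the same direction in all 12 fits. Among these is the fit without the library labelled Wt male, whose genotype term rested on the females.

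Wt and Tg values did not overlap at 60 intergenic cytosines (0.145%, against 0.0709% of all, 0.169% of intronic and 0.146% of coding-exon cytosines), of which 44 were also binomial calls. The 6 named here had the smallest overdispersion p among those 44, each with an adjusted p of 0.422 in the overdispersion model. At chr1:132561019, 18080 bp from Cntn2, which encodes an axonal adhesion molecule, the Wt levels were 15.3%, 5%, 10% and 7.14% and the Tg levels 20 to 50% with a median of 31.0%, from 10 to 59 reads per library. At chr1:133438175, 13798 bp from Sox13, Wt had 20%, 16%, 15.7% and 9.09% and Tg 28.6 to 71.4% with a median of 38.0%, from 14 to 56 reads. These sites were printed with 20 bases on each side on the plus strand, every CpG in capitals and the site in the middle.
Cntn2 side site, chr1:132560999-132561039: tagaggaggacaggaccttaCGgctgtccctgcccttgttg
Sox13 side site, chr1:133438155-133438195: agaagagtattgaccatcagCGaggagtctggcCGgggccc

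Of the others, the site at chr10:92451077 was lower in Tg, with 20 to 33.3% in Wt and 0 to 19.1% in Tg. The repeat-masked site at chr6:35721753 had 61.3 to 84.6% in Wt and 88.6 to 100% in Tg. That at chr17:61321763 had 23.5 to 37.5% and 50 to 66.7%, and that at chr9:95605405, between Paqr9 and Pcolce2, 35.3 to 59.0% and 68.8 to 100%. None had its opposite strand tested, so no second reading of the same CpG was at hand. All 6 rest on few reads per library.

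Of the 4210 stretches the binomial model called 204 (4.85%, against 2.92% of all 34869 stretches), 135 higher in Tg (3.21%, against 1.74%) and 69 lower (1.64%, against 1.18%). The split rested on single libraries, with 278 of 348 calls higher in Tg without Wt female 1, 118 of 225 without the library labelled Wt male, 142 of 263 without Wt female 3, 127 of 226 without Wt female 2 and 111 of 207 without Tg female 1. Without the library labelled Wt male the genotype term again rested on the females. The overdispersion model called 0 of the intergenic stretches, with a smallest adjusted p of 0.302, and 200 had an unadjusted p under 0.05 (4.75%, against 5.82%). Wt and Tg did not overlap in 8 (0.190%, against 0.301% of all stretches). None of the 8 was a binomial call, because each differed by less than the 10 points required. Their adjusted p in the binomial model ran from 5.87e-63 to 0.0146, and their read-weighted differences from -7.74 to 4.81 points.

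These 8 were named after their values were seen. The one with the most cytosines, 41 at chr7:30143589-30143929, lay 21647 bp from Zfp382, a zinc finger gene, in largely island-like sequence. It had 1.86%, 6.21%, 6.25% and 4.15% in Wt and from 0.546 to 1.55% with a median of 0.961% in Tg. All Wt libraries were above all Tg libraries, and the lowest Wt value was 1.86%. The window shown is chr7:30143659-30143858.
Zfp382 side stretch: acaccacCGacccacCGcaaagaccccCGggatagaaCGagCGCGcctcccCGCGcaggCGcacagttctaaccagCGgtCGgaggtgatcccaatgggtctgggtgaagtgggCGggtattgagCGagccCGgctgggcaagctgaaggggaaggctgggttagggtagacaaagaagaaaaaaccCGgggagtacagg
At chr16:30047770-30047823, 17517 bp from Hes1, 4 cytosines had 31.6%, 37.2%, 44.7% and 31.7% in Wt and 23.1 to 31.2% in Tg. Those at chr2:25726006-25726029, chr8:100992209-100992250 and chr14:9132284-9132334 were nearly fully methylated, with 87.5 to 95.9% in Wt and 94.8 to 100% in Tg over the 3. Those at chr6:16317861-16317903 (2.50 to 4.21% in Wt, 0 to 2.22% in Tg) and chr13:21910890-21910965 (18.4 to 23.3% and 10.8 to 18.2%) were lower in every Tg library, and that at chr14:66450318-66450382 (1.25 to 3.09% and 3.47 to 13.9%) was higher.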

How the data were processed

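RRBS was measured in the 12 libraries. The authors, by the labels and the study's methods, had the libraries sequenced, aligned to mm10 with Bismark and read into methylKit (versions not given in the sources used here), and deposited read counts per CpG cytosine (coverage, C and T), 1 file per animal with strands apart and at least 10 reads per cytosine. Across libraries, coverage summed over all cytosines ran from 33619981 to 131446104. This is not a number of reads, because a read counts once at each cytosine it covers.

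Here, cytosines in all libraries were joined (11 repeated positions dropped) and classed with GENCODE vM21 basic. Binomial logistic models with the labelled sex as covariate, without and with overdispersion, were fitted over all cytosines in Python 3.11.15 (NumPy, SciPy), with Benjamini-Hochberg adjustment, and limma 3.58.1 on logit levels was an alternative. No pair of libraries had equal counts at more than 3.37% of the intergenic cytosines. Means were compared by exact tests over animals. Replicate numbers only name animals. The p-values of the exact tests, the overdispersion model and limma cover the spread between these animals. Those of the binomial model without overdispersion do not. Reads without molecular identifiers are not independent molecules. Scripts were tested on 20000 simulated intergenic rows, of which 200 were shifted in Tg. With animals varying by a fixed amount, the binomial model called 200 shifted and 1129 unshifted rows. The overdispersion model called 83 shifted and 0 unshifted rows, so it missed many real shifts there. Its unadjusted p was under 0.05 in 7.74% of the unshifted rows, so small unadjusted p-values were too frequent there.

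Named stretches were those with most cytosines under 10%, over 80% or from 30 to 70% in every library, and the widest in range. The members and lists were chosen with earlier results of these data known. A table of the authors' own calls was not used here.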

Additional observations from a re-analysis of the deposited data

Results flagged for a closer look

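Library values were compared within Wt (n = 4) and within Tg (n = 8) by the gap of the highest or lowest library to its neighbour over the group's range (Dixon's test), for 116 group and measure pairs, of which 20 stood apart where chance alone gives about 5.8. The measures overlap, so the flags are not independent.

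Wt female 1 was apart from the other Wt libraries in 13 of them. It had the highest mean level of intergenic CpGs (31.4%), of those outside island-like sequence (40.9%), of those not repeat-masked (24.6%) and of those in CCGG (36.4%), the largest share from 30 to 70% (16.8%) and the smallest share under 10% (46.6%). Its intergenic mean differed from the intronic mean by 0.423 points, from that at 1 to 5 kb by 18.5 points and from that within 1 kb by 29.6 points. Its repeat difference was 52.6 points, its island-like difference -37.9 points and its CCGG difference 7.45 points. At the stretch at chr2:25726006-25726029, in the neighbourhood of Obp2b, it was lowest of Wt with 90.9%.

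Tg female 1 was apart from the other Tg libraries in 5. It had the highest mean outside island-like sequence (40.8%), in repeats (77.2%) and in the stretch at chr16:90656688-90656769 (79.2%, where the others had 20.4 to 35.9%). Its difference from CpGs at 1 to 5 kb was 18.7 points and its island-like difference -38.1 points. Depth and the other technical quantities of these libraries were not tested as a cause.

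Tg female 2 was highest of Tg at the stretch between Neurod2 and Ppp1r1b (2.33%), and Tg male 3 at the chromosome 12 methylated stretch (96.4%).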

How the results depend on the processing

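Means, class differences and counts were recomputed with at least 20 reads, other weights, joined strands, stretch means, females only, farther CpGs, other thresholds and each animal left out. The differences between repeats and the rest, island-like sequence and the rest, and intergenic CpGs and those in coding exons, at 1 to 5 kb or within 1 kb kept their direction and side of the threshold in every alternative run, but not their size. With at least 20 reads they were 45.6, -12.4, -0.535, 4.78 and 8.09 points in that order, with stretch means 29.1, -39.0, -10.7, 17.05 and 40.3, and with strands joined 43.9, -16.4, -5.71, 5.07 and 9.84. The cause of the changes below was not tested. With at least 20 reads in every library, the intergenic minus intronic difference was -0.525, the island-like genotype difference 0.0166 points, and binomial calls numbered 245 cytosines of 9386 and 18 stretches of 953. With strands joined the intronic and island-like genotype differences were -1.88 and 0.00210. With stretch means the CCGG difference was -6.80. The read-weighted genotype difference was 1.41. The difference with each cytosine weighing the same, without Wt female 1 and Tg female 1 (chosen after seeing the data), was 0.865 for all and 0.0912 for island-like CpGs. Requiring 25 points left 137 cytosines and 1 stretch, limma called 0, and females only gave 388 stretches.

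Leaving out each animal in turn, the genotype difference ran from -0.133 to 1.18 for all, -0.0634 to 0.0963 for island-like and -0.161 to 1.54 points for other intergenic CpGs, binomial calls from 2542 to 3980 cytosines and 207 to 348 stretches, the highest without Wt female 1. The 2542 came from the fit without the library labelled Wt male, whose genotype term rested on the females.

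Levels of named stretches moved by less than their spread between animals in 461 recomputations and by more in 1, where the partly methylated stretch between Hand2 and Scrg1 was at 58.2% with at least 20 reads. No paired analysis was possible because the labels carry no replicate numbers that pair animals across genotypes. Median coverage of a cytosine was 18 in the shallowest library, which limits the precision of single levels there.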
